A study of Mus musculus with 4 samples.

Results

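The 8 genes described here are the metallothionein genes Mt1 and Mt2, the metal-sensing transcription factor gene Mtf1, and the metal transporter genes Slc30a1, Slc30a10, Slc39a1, Slc39a4 and Slc39a14. They were chosen by name, and all 8 were found among the 37315 genes of the count files and passed the filter on low counts, together with 13836 genes tested in all. Liver RNA came from C57BL/6 mice aged 23 weeks, either wild-type (WT) or with Fto, which encodes an RNA demethylase, knocked out (KO), with 2 libraries per genotype. The labels name no treatment, do not say whether Fto was disrupted in all cells or in some, and do not say whether the libraries came from separate animals, so the p-values reflect only how far these libraries vary, and that variation may be technical.

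Metallothioneins are small, cysteine-rich proteins that bind zinc and copper and hold a reserve of these metals in the cell. Free zinc binds the zinc finger protein MTF1, which then binds short DNA sequences called metal response elements upstream of the metallothionein genes and of the zinc exporter gene Slc30a1 and raises their transcription. In liver the metallothionein genes are also known to respond to glucocorticoids, to interleukin-6 and to oxidative stress. Proteins of the SLC30 family move zinc out of the cytosol and those of the SLC39 family move it in, and some members of both families carry manganese or iron.

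The upstream sequences of 4 genes are shown because Mt1 and Mt2 moved together in these libraries while Slc30a1 and Slc30a10, which also hold the core letters of a metal response element, did not pass the test. Each is the 250 bases before the RefSeq start, 5′ to 3′ on the plus strand of GRCm38.p6, the assembly of mm10: chr8:94178839-94179088 for Mt1, chr8:94172368-94172617 for Mt2, chr1:191906531-191906780 for Slc30a1 and chr1:185454598-185454847 for Slc30a10. Capitals mark letters that match a metal response element core (TGCACNC or TGCGCNC), an antioxidant response element core (TGACNNNGC) or a glucocorticoid response element (GNACA and TGTNC with any 3 bases between them), on either strand.
Mt1: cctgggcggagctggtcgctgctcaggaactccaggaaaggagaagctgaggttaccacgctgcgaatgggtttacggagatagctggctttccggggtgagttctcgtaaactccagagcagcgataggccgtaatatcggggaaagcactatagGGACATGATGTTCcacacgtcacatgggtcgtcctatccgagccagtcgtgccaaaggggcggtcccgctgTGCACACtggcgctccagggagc
Mt2: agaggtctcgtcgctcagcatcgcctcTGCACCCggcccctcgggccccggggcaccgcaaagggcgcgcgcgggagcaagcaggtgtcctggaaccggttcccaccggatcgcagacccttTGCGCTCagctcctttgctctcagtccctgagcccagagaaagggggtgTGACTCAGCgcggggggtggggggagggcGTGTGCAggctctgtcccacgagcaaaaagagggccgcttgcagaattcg
Slc30a1: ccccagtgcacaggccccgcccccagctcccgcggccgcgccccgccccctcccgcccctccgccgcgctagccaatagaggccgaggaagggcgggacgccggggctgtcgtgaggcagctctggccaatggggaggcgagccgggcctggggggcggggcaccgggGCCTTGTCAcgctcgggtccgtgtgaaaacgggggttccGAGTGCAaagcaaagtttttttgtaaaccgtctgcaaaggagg
Slc30a10: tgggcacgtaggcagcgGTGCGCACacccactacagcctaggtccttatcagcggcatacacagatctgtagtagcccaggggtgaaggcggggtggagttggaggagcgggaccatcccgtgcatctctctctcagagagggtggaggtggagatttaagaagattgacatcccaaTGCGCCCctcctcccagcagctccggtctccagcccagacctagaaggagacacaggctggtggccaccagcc

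RefSeq windows of 300 bases, from 250 before the start to 50 after it, were matched for 6 of the 8 genes. In Mt1 the core of a metal response element began 23 bases before the start and at bases 3 and 21 after it, which makes 3 matches, and 1.97% of the 32851 windows held at least 3. In Mt2 there were 4 matches, beginning 223, 128 and 50 bases before the start and at base 5 after it, and 0.517% of windows held at least 4. The windows of Slc30a1 and Slc30a10 held 2 and 3 matches, and 2 of the 3 in Slc30a10 overlap on opposite strands. Those of Mtf1 and Slc39a1 held 0, and 25.7% of all windows held at least 1. The Mt1 window alone among the 6 matched the glucocorticoid element, at 94 bases before the start, a palindrome found in 0.475% of windows. The antioxidant core was in the windows of Mt2, Slc30a1 and Slc39a1 and in 12.4% of all windows. TGCACNC alone was in 12.6% of windows and TGCGCNC alone in 15.4%. A match is a description of the letters and not evidence of binding. Positions and counts hold for the 1 RefSeq start used per gene, and a gene may also start elsewhere. Elements outside the windows were not searched, so the counts do not rank the genes by all their elements.

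**Figure D1:**
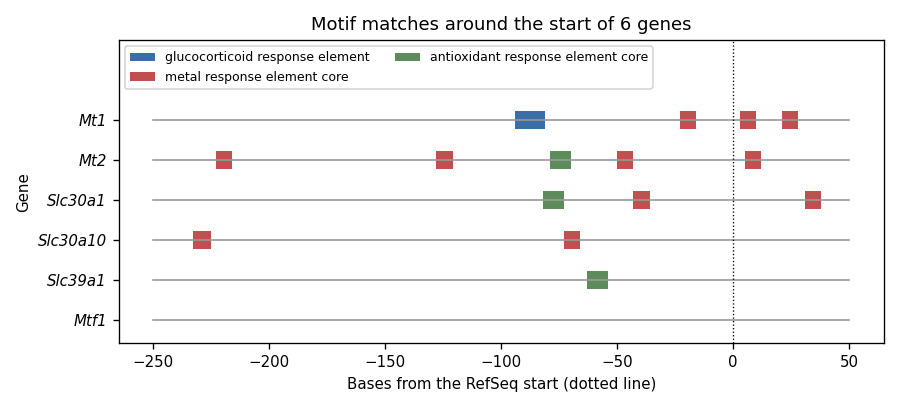
Positions of motif matches (coloured bars) along the 300-base windows of 6 genes, in bases from the RefSeq start; each grey line is 1 window. The windows of Mt1 and Mt2 hold 3 and 4 metal response element cores, and those of Mtf1 and Slc39a1 hold 0.

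The libraries held between 39549592 and 44689114 counts, and 1 read was worth from 0.0216 to 0.0263 CPM, a level scaled to library size. Fto itself had 41.2 and 33.9 CPM in WT replicates 1 and 2 and 13.1 and 12.1 CPM in KO. The 7 hepatocyte markers found (Alb and Ttr among them) summed to between 80090 and 94890 CPM in every library. In reads of the fat cell marker Adipoq the libraries numbered 2 stood apart from those numbered 1 in both genotypes. These reads numbered 1 in WT replicate 1, 70 in WT replicate 2, 0 in KO replicate 1 and 71 in KO replicate 2. Over all genes with enough reads, a chi-square per degree of freedom, lower where 2 libraries are more alike, was 86.5 within WT and 100.5 within KO. It was 121.0 within number 1, 147.2 within number 2, and 161.7 and 226.0 for the pairs that share neither. For the 8 genes, values are therefore also given within each number.

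Both metallothionein genes fell in the KO liver. Mt1 (chromosome 8, 94179082 to 94180327, plus strand, mm10) had 71.2 CPM in WT replicate 1 and 66.2 CPM in WT replicate 2, from 3018 and 2520 reads. In the KO libraries it had 7.66 CPM and 10.3 CPM, from 354 and 411 reads. The genotypes did not overlap, and the lower WT library stood far above the higher KO library. The WT mean of 68.7 ± 3.51 CPM was 7.66-fold the KO mean of 8.96 ± 1.85 CPM (SD, n = 2 each). By the quasi-likelihood test of edgeR this was a log2 fold change of -2.94 with an SE of 0.219 (adjusted p = 0.00132). In bulk tissue, fewer cells of a type and less RNA per cell cannot be told apart.

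Mt2 (chromosome 8, 94172664 to 94173568, plus strand), which lies 5513 bases upstream of Mt1, had the larger fold change. It had 27.1 and 24.9 CPM in WT, from 1149 and 948 reads. It had 1.84 and 2.32 CPM in KO, from 85 and 93 reads. The KO libraries again lay far below both WT libraries. The WT mean of 26.0 ± 1.55 CPM was 12.5-fold the KO mean of 2.08 ± 0.343 CPM (SD, n = 2 each). The log2 fold change was -3.64 with an SE of 0.224 (adjusted p = 0.0011, edgeR). Of all 13836 tested genes Mt2 had the fourth smallest p and ranked 26 among decreases by log2 fold change, and Mt1 ranked 13 by p and 47 by fold change. Of all tested genes 1.91% were called at an adjusted p under 0.05, 0.947% as lower and 0.961% as higher in KO.

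The decrease was present within each replicate number. The KO level of Mt1 was 10.8% of WT within number 1 and 15.5% within number 2, and that of Mt2 was 6.79% and 9.33%. Both genes kept their calls under all 10 alternatives, with log2 fold changes from -3.17 to -2.74 for Mt1 and from -3.83 to -3.48 for Mt2. The share of all genes called was 4.15% with the DESeq2 test, 1.86% with limma-voom, 2.04% with DESeq2 size factors, 1.27% with library size alone, 3.70% with no filter and 19.7% with a replicate term. It was 4.42% and 3.60% without WT replicates 1 and 2 and 3.23% and 3.56% without KO replicates 1 and 2. The longest annotated transcript has 1085 bases for Mt1 and 511 for Mt2, and the 503 tested protein-coding genes where it has fewer than 1000, Mt2 among them, had a median log2 fold change of -0.11. No stretch of 101 bases, the read length, was shared between the annotated transcripts of Mt1 or Mt2 and those of any other gene.

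The unlike fold changes of the 2 genes can be restated as the share of Mt1 in their reads, which is not a separate result. Mt1 gave 72.4% of the reads of both genes in WT replicate 1 (95% exact binomial interval 71.0 to 73.8%) and 72.7% in WT replicate 2 (71.1 to 74.1%). It gave 80.6% in KO replicate 1 (76.6 to 84.2%) and 81.5% in KO replicate 2 (77.9 to 84.8%). Each KO library had a higher share than both WT libraries, by 8.55 percentage points on average. With 2 libraries against 2 the exact permutation test gave p = 0.333 (two-sided), the smallest this design allows, and the intervals cover counting error only. Summed over the pair, WT livers held 94.7 ± 5.06 CPM and KO livers 11.04 ± 2.19 CPM (SD, n = 2 each).

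The other metallothionein genes were near or at 0. Mt3, known as the brain metallothionein, had 2 reads in each of 3 libraries and 0 in KO replicate 2. Mt4, of stratified epithelia, had 0 reads in every library, which allows a level of up to 0.0788 CPM in the shallowest library (3 reads).

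**Figure D2:**
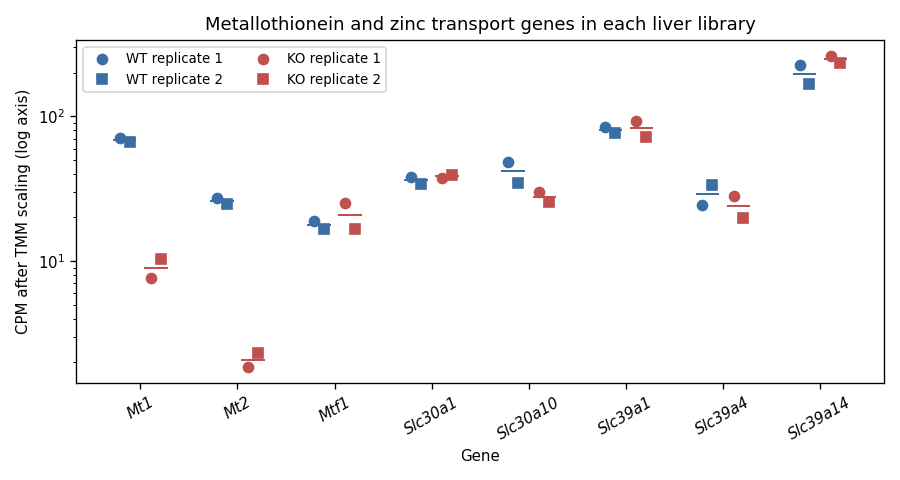
Levels of the 8 genes in each library, as CPM after TMM scaling on a log axis; circles are replicate 1, squares replicate 2, and bars the mean of each genotype. Mt1 and Mt2 lie far lower in both KO libraries (7.66 and 10.3 CPM, and 1.84 and 2.32 CPM). Of the other 6 genes 0 were called, against 1.91% of all tested genes. The genotypes did not overlap for 2 of the 6, Slc30a10 (lower in KO) and Slc39a14 (higher), nor for 42.0% of all tested genes.

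Mtf1 (chromosome 4, 124802104 to 124849800), which encodes the metal sensor, had 18.9 and 16.7 CPM in WT and 25.0 and 16.7 CPM in KO. The genotypes overlapped, with KO replicate 1 above the other 3 libraries. Its log2 fold change was 0.23 (95% interval -0.31 to 0.78, adjusted p = 0.774, edgeR), and it was -0.086 without KO replicate 1. The KO level was 132% of WT within number 1 and 100.4% within number 2. The gene 1110065P20Rik overlaps Mtf1 on the opposite strand with at most 277 reads in a library, and the library kit does not mark strand, so reads of the overlap cannot be told apart.

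The zinc exporter gene Slc30a1 (chromosome 1, 191906767 to 191913247), whose transcription MTF1 is known to drive, had nearly level values. It had 38.1 and 34.2 CPM in WT and 37.6 and 39.3 CPM in KO. The genotypes overlapped. Its log2 fold change was 0.09 (95% interval -0.32 to 0.50, adjusted p = 0.911, edgeR), so that decreases of the size seen for Mt1 and Mt2 lie outside the interval. Within numbers 1 and 2 the KO level was 98.8% and 115% of WT.

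Slc30a10 (chromosome 1, 185454848 to 185468762) belongs to the zinc exporter family by sequence and is known to export manganese from hepatocytes. It had 48.5 and 34.8 CPM in WT and 29.96 and 25.7 CPM in KO. Both KO libraries were below both WT libraries, as was the case for 20.4% of all tested genes. Its log2 fold change of -0.58 (SE 0.219, 95% interval -1.09 to -0.07) had an unadjusted p of 0.03 and an adjusted p of 0.31 (edgeR) and was not called. At an unadjusted p under 0.05 stood 13.0% of tested genes. Its KO level was 61.8% of WT within number 1 and 73.7% within number 2.

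Slc39a14 (chromosome 14, 70303469 to 70351425) imports zinc, manganese and iron into hepatocytes. It had 226 and 167 CPM in WT and 263 and 233 CPM in KO, with both KO libraries above both WT libraries by a small margin. Its log2 fold change was 0.33 (95% interval -0.14 to 0.81, adjusted p = 0.576, edgeR) and was not called. By number, the KO level was 116% and 139% of WT.

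Slc39a1 (chromosome 3, 90248172 to 90253612), a zinc importer of the cell surface, had 84.1 and 76.6 CPM in WT and 93.4 and 72.3 CPM in KO. The KO libraries lay on both sides of the WT pair. Its log2 fold change was 0.04 (95% interval -0.41 to 0.50, adjusted p = 0.97, edgeR), and its sign turned without WT replicate 2 (-0.03) and without KO replicate 1 (-0.15). Its KO level was 111% of WT within number 1 and 94.4% within number 2. Of its 2264 annotated stretches of 101 bases, 333 also occur in the transcript of Slc39a1-ps, a copy of the gene, so its level is uncertain.

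Slc39a4 (chromosome 15, 76612383 to 76617384) is best known as the zinc importer of the intestinal lining. It had 24.5 and 33.7 CPM in WT and 28.2 and 19.7 CPM in KO, and the genotypes overlapped. Its log2 fold change was -0.28 (95% interval -0.86 to 0.29, adjusted p = 0.727, edgeR), with 0.20 within number 1 and -0.78 within number 2. Of 7 markers of the small intestine enterocyte, Sis and Alpi had 0 reads in all libraries, and the 7 together summed to 200.2 and 387 CPM in WT and 152 and 226 CPM in KO, with 0 of 3 tested called. Of 8 markers of the pancreas acinar cell, Cel, Pnlip, Prss2 and Amy2a1 had 0 reads, and the 8 summed to between 20.8 and 31.2 CPM, with the 1 tested not called. Whether the reads of these markers came from such cells, and the part of such cells in the level of Slc39a4, was not tested.

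Of the 8 genes 2 were called, both lower, against the 1.91% of all tested genes called. The genotypes did not overlap for 4 of the 8, 3 lower and 1 higher in KO, against 42.0% of all tested genes, 20.4% lower and 21.6% higher. The 6 others had a median log2 fold change of 0.07, beside 0.01 over all genes tested. The order of levels per kilobase of annotated exon differed between genotypes. In WT, Mt1 (55.1 ± 2.82 CPM per kilobase) and Mt2 (44.2 ± 2.63) stood above Slc39a1 (34.0 ± 2.22), Slc39a14 (18.6 ± 3.99), Slc39a4 (9.37 ± 2.11), Slc30a10 (7.13 ± 1.65), Slc30a1 (6.89 ± 0.530) and Mtf1 (1.995 ± 0.177; SD, n = 2 each). Neighbours in this order overlapped between libraries for Slc39a4 with Slc30a10 and for Slc30a10 with Slc30a1. In KO, Slc39a1 (35.04 ± 6.30) and Slc39a14 (23.5 ± 2.02) led, and Mt1 (7.19 ± 1.48) and Mt2 (3.54 ± 0.584) took positions 5 and 7 of 8 (SD, n = 2 each). Slc30a1 (7.34 ± 0.229) stood above Slc30a10 (4.77 ± 0.520) in KO, the reverse of their order in WT, where they overlapped. Mt1 overlapped with Slc30a1 above it, and Slc39a4 with Slc30a1. The annotated exons of Slc39a14 over all its transcripts span 10550 bases, against 5117 in its longest transcript, while for Slc39a1 both lengths are 2364. The order of Slc39a1 and Slc39a14 therefore depends on the length used. The annotated exons of Mt1, over all its transcripts, also cover its introns. Over the 549 bases of its spliced transcript with 3 exons its mean was 125.1 CPM per kilobase in WT and 16.3 in KO, against 50.9 and 4.07 for the 511 bases of that of Mt2.

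None of the 21 tested zinc transporters, of 24 in both families, was called by edgeR, against 1.91% of all tested genes. For 21 genes a count of 0 is near that share. By edgeR 5 of the 21 had an unadjusted p under 0.05, against 13.0% of all tested genes. Limma-voom called 0 and DESeq2 called 1, against 1.86% and 4.15% of all tested genes. The median log2 fold change of the 21 was 0.04, with 11 positive and 10 negative. Slc39a2, a zinc importer of the cell surface, had the largest log2 fold change of the importers, with 2.26 and 1.42 CPM in WT against 6.51 and 4.87 CPM in KO. Both KO libraries were above both WT libraries, and the log2 fold change of 1.62 lay just outside the threshold (SE 0.314, adjusted p = 0.0506, edgeR). It was called under 8 of the 10 alternatives, with adjusted p from 8.63e-06 to 0.104. These counts were low, from 54 to 301 reads.

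Slc30a3, which loads zinc into synaptic vesicles of neurons, gave 7 and 4 WT reads against 22 and 35 KO reads (log2 fold change 2.28, SE 0.615, adjusted p = 0.141). Slc30a5, of the secretory pathway, had a log2 fold change of 0.38 (adjusted p = 0.485). The importer genes Slc39a6 and Slc39a7, the latter of which releases zinc from the endoplasmic reticulum, had 0.85 (adjusted p = 0.233) and 0.50 (adjusted p = 0.361). Among all 21 tested transporters the KO libraries lay above the WT libraries for 7 and below them for 4, against 21.6% and 20.4% of all tested genes. The other 9 tested transporters outside the 8 genes, Slc39a8 and Slc39a10 aside, had log2 fold changes from -0.86 to 0.09 and adjusted p of at least 0.413. Slc30a2, Slc30a8 and Slc39a12 had at most 10 reads in any library and were not tested.

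**Figure D3:**
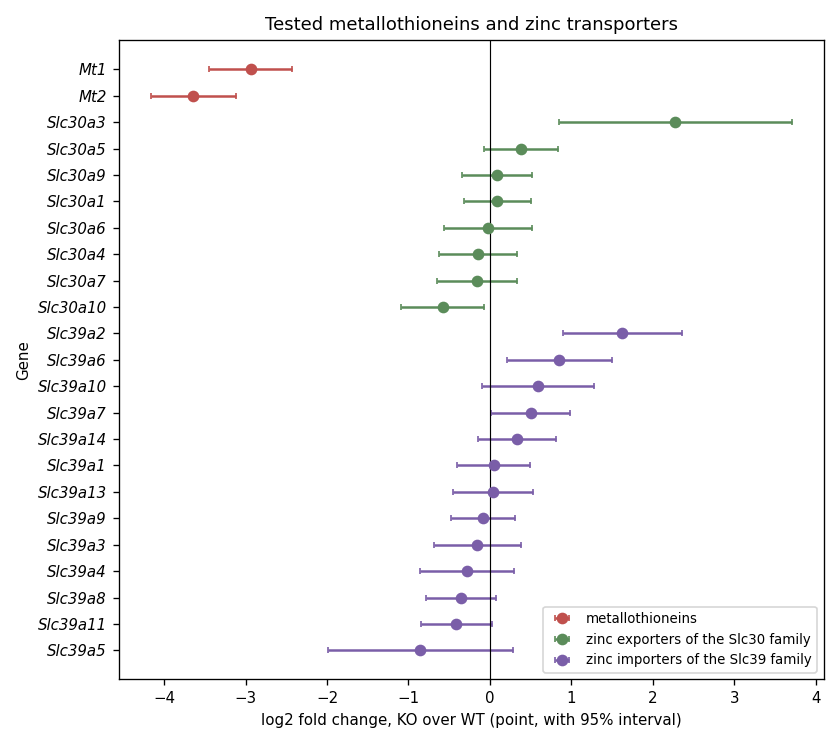
Log2 fold changes of KO over WT (points) with 95% intervals for the 2 tested metallothioneins, 8 exporters and 13 importers. Mt2 and Mt1 lie at -3.64 and -2.94, and the transporters spread about 0 from -0.86 to 2.28.

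Of 7 other genes known to respond to MTF1 edgeR called 0, against 1.91% of all tested genes. For 7 genes a count of 0 is near that share. By edgeR 1 had an unadjusted p under 0.05, against 13.0% of all tested genes. The median log2 fold change was -0.11, with 1 positive and 6 negative. DESeq2 called 1 of the 7 and limma-voom 0, against 4.15% and 1.86% of all tested genes. Gclc, which encodes the catalytic subunit of the enzyme that limits glutathione synthesis, had 489 and 433 CPM in WT and 316 and 243 CPM in KO. Both KO libraries were lower (log2 fold change -0.72, SE 0.195, adjusted p = 0.141, edgeR). The selenoprotein gene Selenoh had -0.52 (adjusted p = 0.419), and Slc39a10, a zinc importer that MTF1 is known to repress, 0.59 (adjusted p = 0.474). Slc39a10 was the 1 positive gene, so the median and the signs of this list pool responses to MTF1 of unlike direction.

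Copper handling is the other metal function of metallothioneins. Of its 11 tested genes edgeR, DESeq2 and limma-voom each called 0, against 1.91%, 4.15% and 1.86% of all tested genes. By edgeR 1 had an unadjusted p under 0.05, against 13.0% of all tested genes, and the median was -0.03. Atox1, which hands copper to the export pumps, had 70.1 and 75.9 CPM in WT and 50.6 and 42.5 CPM in KO (log2 fold change -0.65, adjusted p = 0.163). Ceruloplasmin, the copper-carrying oxidase of plasma encoded by Cp, had a log2 fold change of 0.38 (adjusted p = 0.395), and the copper pump gene Atp7a 0.51 (adjusted p = 0.515). Of 7 genes of manganese and other divalent metal transport edgeR, DESeq2 and limma-voom each called 0, against the same shares of all tested genes. Slc30a10 alone had an unadjusted p under 0.05 by edgeR, against 13.0% of all tested genes. Slc11a2, an importer of iron and manganese, had 0.48 (adjusted p = 0.425), and Slc39a8, an importer of zinc and manganese, -0.35 (adjusted p = 0.491).

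Among 18 zinc-dependent enzymes 1 was called, lower, against 1.91% of all tested genes called. The median was -0.22, with 2 positive and 16 negative. By edgeR 4 had an unadjusted p under 0.05, against 13.0% of all tested genes. Both KO libraries lay below both WT libraries for 13 and above them for 1, against 20.4% and 21.6% of all tested genes. Bhmt, a zinc enzyme that remakes methionine from homocysteine, had 2536 and 2841 CPM in WT and 1370 and 1441 CPM in KO, with a log2 fold change of -0.94 (adjusted p = 0.0422, edgeR). It was not called when WT replicate 2 (adjusted p = 0.0879) or KO replicate 1 (0.0808) was left out. The carbonic anhydrase genes Car14 and Car2 had -0.88 (adjusted p = 0.0748) and -1.13 (adjusted p = 0.163).

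Genes of the signals that are known to act on metallothioneins moved in different directions. Of 12 glucocorticoid-induced genes 2 were called lower and 1 higher, against 1.91% of all tested genes called. The median was -0.16. By edgeR 7 of the 12 had an unadjusted p under 0.05, against 13.0% of all tested genes. The genotypes did not overlap for 8, 5 lower and 3 higher in KO, against 42.0% of all tested genes. Cdkn1a, the cell cycle inhibitor p21, had 10.3 and 13.5 CPM in WT and 0.995 and 1.12 CPM in KO (log2 fold change -3.49, adjusted p = 0.00135). The phosphatase gene Dusp1 had -1.11 (adjusted p = 0.0398, and 0.0669 with library size alone). Zbtb16, a transcription factor gene, had 5.09 and 5.88 CPM in WT and 22.5 and 18.7 CPM in KO (log2 fold change 1.91, adjusted p = 0.00693, edgeR).

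Of 17 interleukin-6 and acute phase genes 1 was called higher and 0 lower, against 1.91% of all tested genes called. The median was 0.56, with 14 positive and 3 negative. By edgeR 8 had an unadjusted p under 0.05, against 13.0% of all tested genes. For 11 both KO libraries lay above both WT libraries, and for 0 below, against 21.6% and 20.4% of all tested genes. Socs3, the feedback inhibitor of interleukin-6 signalling, had 4.15 and 3.15 CPM in WT and 8.67 and 10.6 CPM in KO (log2 fold change 1.40, SE 0.246, adjusted p = 0.0352, and 0.0669 with library size alone). The receptor gene Il6ra had 0.73 (adjusted p = 0.14) and the metalloreductase gene Steap4 0.80 (adjusted p = 0.206). Of 11 tested genes of the response to NRF2, a regulator of antioxidant genes, 0 were called by edgeR, against 1.91% of all tested genes. By edgeR 3 had an unadjusted p under 0.05, against 13.0% of all tested genes, and the median was -0.27. DESeq2 called 3, against 4.15% of all tested genes. The glutathione transferase gene Gsta1 had -1.54 (adjusted p = 0.0515) and was called under 8 of the 10 alternatives, with adjusted p from 3.66e-09 to 0.0859. On the same list the quinone reductase gene Nqo1 had -1.16 (adjusted p = 0.101).

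**Figure D4:**
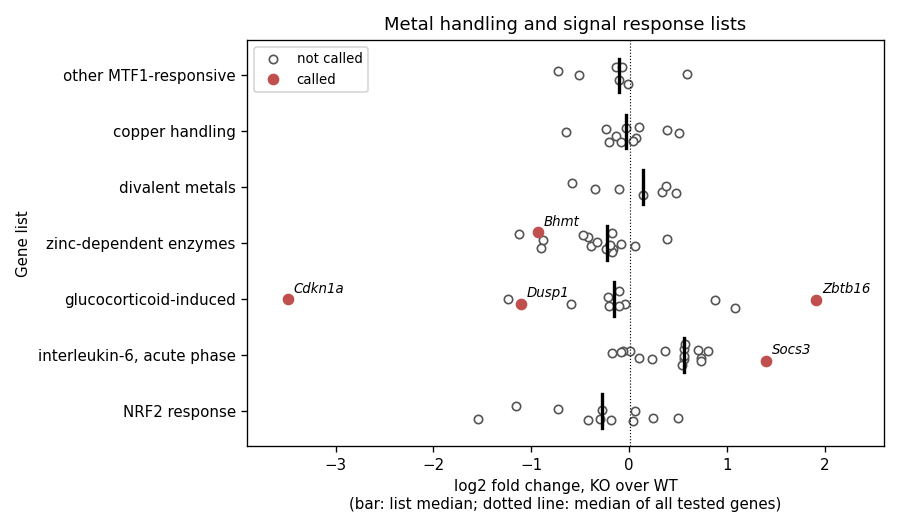
Log2 fold changes of KO over WT for the tested genes of 7 lists; each circle is 1 gene, filled where it was called, and the bar is the list median. The filled genes are Bhmt, Cdkn1a, Dusp1, Zbtb16 and Socs3, and the medians run from -0.27 (NRF2 response) to 0.56 (interleukin-6 and acute phase).

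The metallothionein pair lies on the same chromosome as the disrupted gene, with 2.50 Mb between the end of Fto and the start of Mt2. Of the 14 genes tested between them 1 was called, against 1.91% of all tested genes. The median log2 fold change of the 14 was 0.07. The called gene was the carboxylesterase gene Ces1g, which had 245 and 241 CPM in WT and 52.5 and 61.9 CPM in KO (log2 fold change -2.09, SE 0.183, adjusted p = 0.00272, edgeR). The nearest tested genes on either side of the pair were not called: Bbs2, a gene of cilia, had 0.54 (adjusted p = 0.445) and Nup93, a nuclear pore gene, -0.47 (adjusted p = 0.532). Of 27 other tested genes within 1 Mb of Mt1, a width set after the values were seen, Ces1g was the 1 called.  The share called among all tested genes was 1.91%. Nlrc5, a regulator of class I MHC genes, had -1.02 (adjusted p = 0.0765).

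**Figure D5:**
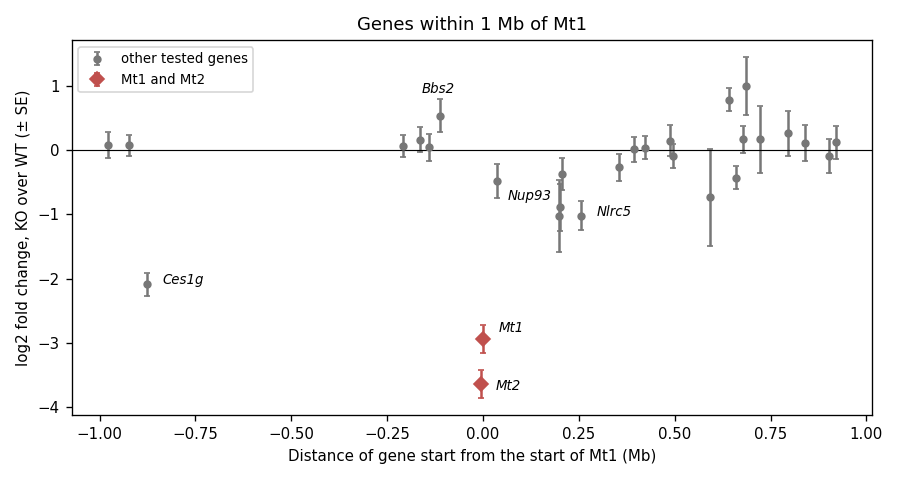
Log2 fold changes of KO over WT (± SE) of genes tested within 1 Mb of Mt1, by the distance of their starts in Mb. Mt1, Mt2 and, 0.877 Mb away, Ces1g stand below the others, which lie between -1.02 and 1.01.

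Among the 10391 other genes that averaged 2 CPM or more, the 5 closest to the mean pattern of Mt1 and Mt2 over the 4 libraries were Cdkn1a, Themis, Zfp979, Abcd2 and Raet1e. Likeness was the Euclidean distance between log2 levels centred on each gene's mean, and it ran from 0.401 for Cdkn1a to 0.630 for Raet1e. The distance of Mt1 from the mean of the pair was 0.327. Themis, a gene of T cell signalling, had 11.8 and 11.01 CPM in WT and 0.692 and 0.800 CPM in KO. The 7 markers of T and B lymphocytes together summed to 2.31 and 2.42 CPM in WT and 2.14 and 3.17 CPM in KO. Of 3 tested, 0 were called. Which cells the Themis reads came from was not tested. Abcd2, a fatty acid transporter of peroxisomes, had 18.6 and 15.5 CPM in WT and 0.887 and 1.75 CPM in KO. With 4 libraries the measure mainly picks genes with a like fold change.

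Of the markers of other cell types, 2 were called, both of Kupffer cells. All 12 markers of Kupffer cells, the macrophages of liver, were higher in both KO libraries than in both WT libraries. That was the case for 21.6% of all tested genes. The 12 had a median log2 fold change of 0.95, and by edgeR all 12 had an unadjusted p under 0.05, against 13.0% of all tested genes. Their summed levels were 184 and 277 CPM in WT and 409.7 and 440.4 CPM in KO. Of the 12, Marco (log2 fold change 1.66, adjusted p = 0.0155) and Csf1r (0.97, adjusted p = 0.0478) were called; the latter was not called when WT replicate 1 (0.067) or KO replicate 1 (0.0842) was left out or when only library size was used (0.0738). The 5 tested erythroid markers, globin genes and Alas2, were lower in both KO libraries than in both WT libraries, as were 20.4% of all tested genes (median log2 fold change -0.80). Of these, 0 were called by edgeR, with 4 at an unadjusted p under 0.05, against 1.91% and 13.0% of all tested genes. The 8 adipocyte markers summed to 4245 and 4573 CPM in WT and 2845 and 3505 CPM in KO. Of 7 tested, 6 were negative and 0 were called. This list includes Car3, which is also on the list of zinc-dependent enzymes of liver. The sum did not follow Adipoq, which had hardly any reads in WT replicate 1 and KO replicate 1. It therefore cannot be read as a level of fat cells. Of 8 stellate cell markers 7 were negative, 4 of them without overlap, and 0 were called; they summed to 168 and 235 CPM in WT and 169 and 175 CPM in KO. The part of these cells in the decrease of Mt1 and Mt2 was not tested.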

How the data were processed

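Polyadenylated liver RNA was sequenced as paired reads of 101 bases, per the labels. The authors deposited 1 file per library with raw read counts per Ensembl gene; TopHat2 2.1.1, HTSeq 0.6.0 and the build mm10 are named in the submitters' processing notes. Which annotation was counted, and how, is not given in the sources used here. GENCODE M21 gave a symbol to 35533 of 37315 identifiers. Counts were filtered with filterByExpr (minimum count 10, minimum total 15), scaled by TMM and tested with edgeR 4.0.16 (robust quasi-likelihood F test, two-sided, genotype as the only term, R 4.3.3), with Benjamini-Hochberg adjustment over all 13836 genes and calls at an adjusted p under 0.05. Intervals are 95%. On simulated counts for KO against WT (13592 genes on average, 3 runs) 53.0% of 2-fold and 97.7% of 4-fold changes were recovered, with 4.81% false calls. The simulation gave genes of like level the same spread and changed only genes of at least 1 CPM. It held no effect of replicate number, so these rates may not hold for the real libraries or for genes at lower levels. Alternatives were DESeq2 1.42.0, limma-voom (limma 3.58.1), other scalings, no filter, a term for replicate number, and leaving out each library. Genes were named by rule: all 8 genes, the called genes of each list, or up to 3 with the smallest p, and the 5 most like Mt1 and Mt2. The genes and lists were chosen with earlier results of these data known.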

Additional observations from a re-analysis of the deposited data

How the results depend on the processing

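Mt1 and Mt2 kept their direction and calls under all 10 alternatives (adjusted p at most 0.00651 and 0.00617). Without 1 library Mtf1 ranged from -0.086 (without KO replicate 1) to 0.48 and Slc39a1 from -0.15 (without KO replicate 1) to 0.21 in log2 fold change, with -0.031 for Slc39a1 without WT replicate 2. The number of all genes called, 264, was 574 with the DESeq2 test, 829 with no filter and from 460 to 633 without 1 library. Of the zinc transporters 1 was called with the DESeq2 test, 1 with DESeq2 size factors, 2 with no filter and 1 without any single library (from 1 to 1); the main count was 0. Counts for other lists over the 10 alternatives ran from 0 to 7 for zinc-dependent enzymes and for interleukin-6 genes, 2 to 7 for glucocorticoid-induced genes, 0 to 6 for NRF2 genes, 0 to 5 for divalent metal transport, 0 to 2 for copper and 0 to 1 for MTF1, the highest with the replicate term. The cause was not tested. A replicate block, the number as a term, called 2729 genes, 4 of the 8 genes and 9 zinc transporters, and Slc30a10 (-0.57, adjusted p = 3.63e-04) and Slc39a14 (0.35, adjusted p = 0.0124) passed under it. Whether libraries of equal number share an animal is not in the labels, and the differences between replicates 1 and 2 correlated between genotypes with r = 0.581 across 13836 genes, which are not independent. Among the 33 other genes named, 271 values stayed on their side of the threshold, 52 newly passed it, 7 no longer did and none changed sign. Counts under 10 reads, as for Mt3 and Slc30a8, limit what could be tested. Leaving out a library leaves 1 in its group, which is assumed to vary like the other group.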
